A study of Mus musculus with 2 samples.

Results

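The Kruppel-like factors described here are Klf2, Klf3, Klf4, Klf6, Klf7, Klf10, Klf13 and Klf15, 8 genes taken by symbol from the 31053 gene rows measured in single non-cardiomyocytes of the mouse heart. All 8 were found in both libraries. The cells came from hearts of male C57BL6/J wildtype mice on day 20 after transverse aortic constriction (TAC), a surgical narrowing of the aorta that loads the left ventricle with pressure, or on day 20 after sham surgery (Sham), the operation without the narrowing. Per the labels, hearts were digested with collagenases and a protease, cardiomyocytes settled out, red cells were lysed and viable DAPI-negative cells were sorted and captured on 1 lane per group. Each group is therefore 1 library, the labels do not say how many hearts went into it, and no p-value can be attached to any difference below. Intervals are at 95% and cover counting error only, leaving out variation from mouse to mouse.

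Kruppel-like factors are DNA-binding proteins with zinc fingers that bind GC-rich and CACCC sequences, and they act as activators or repressors depending on the partners they recruit. In endothelium, laminar flow raises KLF2 and KLF4 through the kinases MEKK3, MEK5 and ERK5 and the MEF2 transcription factors, and both proteins favour an anti-inflammatory and anti-thrombotic state. KLF2 and KLF4 also act in myeloid cells, KLF10 was first described as a TGF-beta-inducible early gene, and KLF15 is known in heart and muscle for metabolic control and for restraining growth and fibrosis.

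The promoter of Klf2 is shown because it is the member in which a MEF2 site was found, and that of Klf4 because both genes are known to respond to flow. Both are the 250 bases before the RefSeq gene start, 5′ to 3′ in the direction of the gene, from RefSeq with build GRCm38.p6, at chr8:72318812-72319061 on the plus strand and chr4:55532476-55532725 on the minus strand. Capitals mark the MEF2 site and each GC box (GGGCGG or its reverse complement).
Klf2: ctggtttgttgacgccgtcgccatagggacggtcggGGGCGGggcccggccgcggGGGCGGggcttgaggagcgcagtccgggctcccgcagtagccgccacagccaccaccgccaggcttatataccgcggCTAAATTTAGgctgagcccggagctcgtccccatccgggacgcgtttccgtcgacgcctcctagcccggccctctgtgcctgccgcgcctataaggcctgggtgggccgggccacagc
Klf4: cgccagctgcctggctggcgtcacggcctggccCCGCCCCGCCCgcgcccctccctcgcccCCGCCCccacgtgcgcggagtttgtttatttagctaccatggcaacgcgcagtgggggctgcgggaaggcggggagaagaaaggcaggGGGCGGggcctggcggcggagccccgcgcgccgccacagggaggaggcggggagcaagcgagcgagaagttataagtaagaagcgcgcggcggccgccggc
In Klf2 the MEF2 site spanned bases -118 to -109 from the start, and GC boxes lay at -214 to -209 and -195 to -190. In the GENCODE annotation Klf2 starts at 72319033, inside the printed stretch, so these positions hold for the RefSeq start only. Klf4 held no MEF2 match and 4 GC boxes, of which the pair at -217 to -212 and -212 to -207 share a base. On both strands, among 27025 genes with a promoter in the same table, a MEF2 site was present in 3.01%, a GC box in 32.9%, a CACCC box (CACCC) in 51.3%, the core of a cyclic-AMP response element (TGACG) in 17.9% and a SMAD element (CAGACA) in 17.1%. Klf10 had no promoter in the table and was not searched for any of these motifs. Of the 7 members with a promoter in the table, Klf2 alone held the MEF2 site. A GC box was found in each of the 7. A CACCC box was found in Klf2, Klf3, Klf7, Klf13 and Klf15, and in neither Klf4 nor Klf6. The TGACG core was found in Klf2, Klf4, Klf13 and Klf15, and the SMAD element in Klf3. An AP-1 site (TGANTCA) or a CArG box was found in none of the 7, against 6.87% and 1.40% of all promoters. These are matches of letters, not sites of binding.

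Molecules were counted by unique molecular identifiers (UMIs), 96003109 over 8901 barcodes in the TAC library and 42490230 over 8426 barcodes in the Sham library. After filtering, 7854 TAC and 7894 Sham cells were kept, with median depths of 11158 and 4881.5 UMIs, and 13 kept barcodes occurred in both libraries. Cells were gated on marker genes that include no Kruppel-like factor, which gave 5450 TAC and 6150 Sham fibroblast-like cells, 990 and 1152 macrophage-like cells, 626 and 163 endothelial-like cells, and 287 and 61 lymphatic endothelial-like cells. Markers kept out of the gate followed it: Col1a2 was at 2885 CPM in TAC and 1234 CPM in Sham fibroblast-like cells, against 105 and 64.9 CPM in the other cells. Cd163 was at 274 CPM in TAC and 366 CPM in Sham macrophage-like cells, against 3.49 and 5.43 CPM in the others, and Kdr at 524 and 257 CPM in endothelial-like cells, against 17.6 and 3.71 CPM. Cardiomyocyte-like cells were 0.471% of TAC and 0.291% of Sham cells, after the settling step that removes them. Levels are in CPM, the usual depth-scaled unit, here the UMIs of a gene summed over a class and divided by all UMIs of that class and library. These are 3′ tags, 1 per molecule whatever the length of the transcript.

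Across fibroblast-, macrophage- and endothelial-like cells, 6 of the 8 members had their highest level in endothelial-like cells in both libraries. These were Klf2, Klf3, Klf4, Klf7, Klf10 and Klf13. Klf15 was highest in fibroblast-like cells, and Klf6 was highest in endothelial-like cells of the TAC library but in macrophage-like cells of the Sham library. The class of the highest level was the same for each member in each alternative for which it was recomputed.

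Klf2 (ENSMUSG00000055148, mm10 chromosome 8, 72319033 to 72321656), the flow-induced factor of endothelium, had the highest CPM of the members in each of the 4 classes, except macrophage-like cells of the TAC library and fibroblast-like cells of the Sham library. In endothelial-like cells it stood at 2776 CPM (2718 to 2834) in TAC and 3574 CPM (3401 to 3753) in Sham. Lymphatic endothelial-like cells came next at 1071 CPM in TAC and 2290 CPM in Sham, then macrophage-like cells at 707 and 1387 CPM and fibroblast-like cells at 608 and 799 CPM. No pair of neighbours in this order had overlapping intervals in either library.

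Klf4 (ENSMUSG00000003032, chromosome 4, 55527143 to 55532466), its close relative and a factor of barrier and quiescence genes, had another order. Endothelial-like cells were at 1261 CPM (1222 to 1300) in TAC and 1754 CPM (1634 to 1880) in Sham, and lymphatic endothelial-like cells at 702 and 1197 CPM. Fibroblast-like cells, at 583 and 985 CPM, were above macrophage-like cells, at 402 and 562 CPM. In mural-like cells, the pericytes and smooth muscle of vessels, Klf4 gave 8 UMIs in 72 TAC cells and 3 UMIs in 35 Sham cells. That is 26.0 and 39.0 CPM, far under the 583 and 985 CPM of fibroblast-like cells.

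Klf6 (ENSMUSG00000000078, chromosome 13, 5861482 to 5870394), an injury-induced member that in macrophages is known to favour inflammatory gene expression, was the leading member of macrophage-like cells in TAC. Its level there was 825 CPM (811 to 840.5) in TAC and 1208 CPM (1183 to 1234) in Sham, against 920.1 CPM (887 to 954) and 822 CPM (741 to 911) in endothelial-like cells. Fibroblast-like cells had the lowest Klf6 of the 4 classes, at 208 and 306 CPM.

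Klf3 (ENSMUSG00000029178, chromosome 5, 64803388 to 64832901) is a repressor that recruits CtBP. It was at 271 CPM (254 to 290.0) in TAC and 501 CPM (438 to 571) in Sham endothelial-like cells. In the TAC library its levels in macrophage-like cells (140.2 CPM), lymphatic endothelial-like cells (133 CPM) and fibroblast-like cells (132 CPM) could not be ordered, since the lymphatic interval of 119 to 149 covers both others. In the Sham library fibroblast-like cells, at 211 CPM (206 to 216), were above macrophage-like cells, at 166 CPM (156 to 175).

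Klf13 (ENSMUSG00000052040, chromosome 7, 63886351 to 63938915), a broadly expressed member known from T cell chemokine control and heart development, varied least between classes. Its range over the 4 classes was 269.8 to 425 CPM in TAC and 206 to 428 CPM in Sham. Klf7 (ENSMUSG00000025959, chromosome 1, 64029447 to 64122282), known from neuron and fat cell development, was at 318 CPM (298 to 338) in TAC and 259 CPM (215 to 311) in Sham endothelial-like cells and lowest in macrophage-like cells, at 70.0 and 86.9 CPM. In mural-like cells Klf7 stood at 309 CPM (250.1 to 378) in TAC and 312 CPM (200.1 to 465) in Sham, where its interval overlapped that of endothelial-like cells.

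Klf10 (ENSMUSG00000037465, chromosome 15, 38291463 to 38300706), the TGF-beta-inducible member, had its highest levels among the 4 classes in both endothelial ones. In TAC its levels were 106 CPM in lymphatic and 79.7 CPM in other endothelial-like cells, against 38.5 CPM in fibroblast-like and 37.3 CPM in macrophage-like cells, and the intervals of the last pair overlapped. In Sham they were 140.5 and 151 CPM in the endothelial classes, 106 CPM in fibroblast-like and 42.7 CPM in macrophage-like cells. The Sham lymphatic value rests on 23 UMIs, and its interval of 89.0 to 211 covers the fibroblast-like level.

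Klf15 (ENSMUSG00000030087, chromosome 6, 90462576 to 90475238) was the scarcest member. Fibroblast-like cells held 28.4 CPM (27.2 to 29.7) in TAC and 45.1 CPM (42.8 to 47.5) in Sham, and mural-like cells 32.5 CPM from 10 UMIs and 26.0 CPM from 2 UMIs. In TAC endocardial-like cells, described below with the smaller classes, Klf15 was at 92.8 CPM (66.9 to 125). Macrophage-like cells gave 8 UMIs in TAC and 12 in Sham, 0.561 and 1.65 CPM, a level at which free RNA cannot be told from expression. Endothelial-like cells gave 20 and 5 UMIs, 6.25 and 11.1 CPM, with a ratio interval of 0.205 to 1.92. No Klf15 UMI was seen in Sham lymphatic endothelial-like cells, for which the upper limit of the interval is 22.5 CPM, and the 6.39 CPM of TAC lies under that limit.

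**Figure D1:**
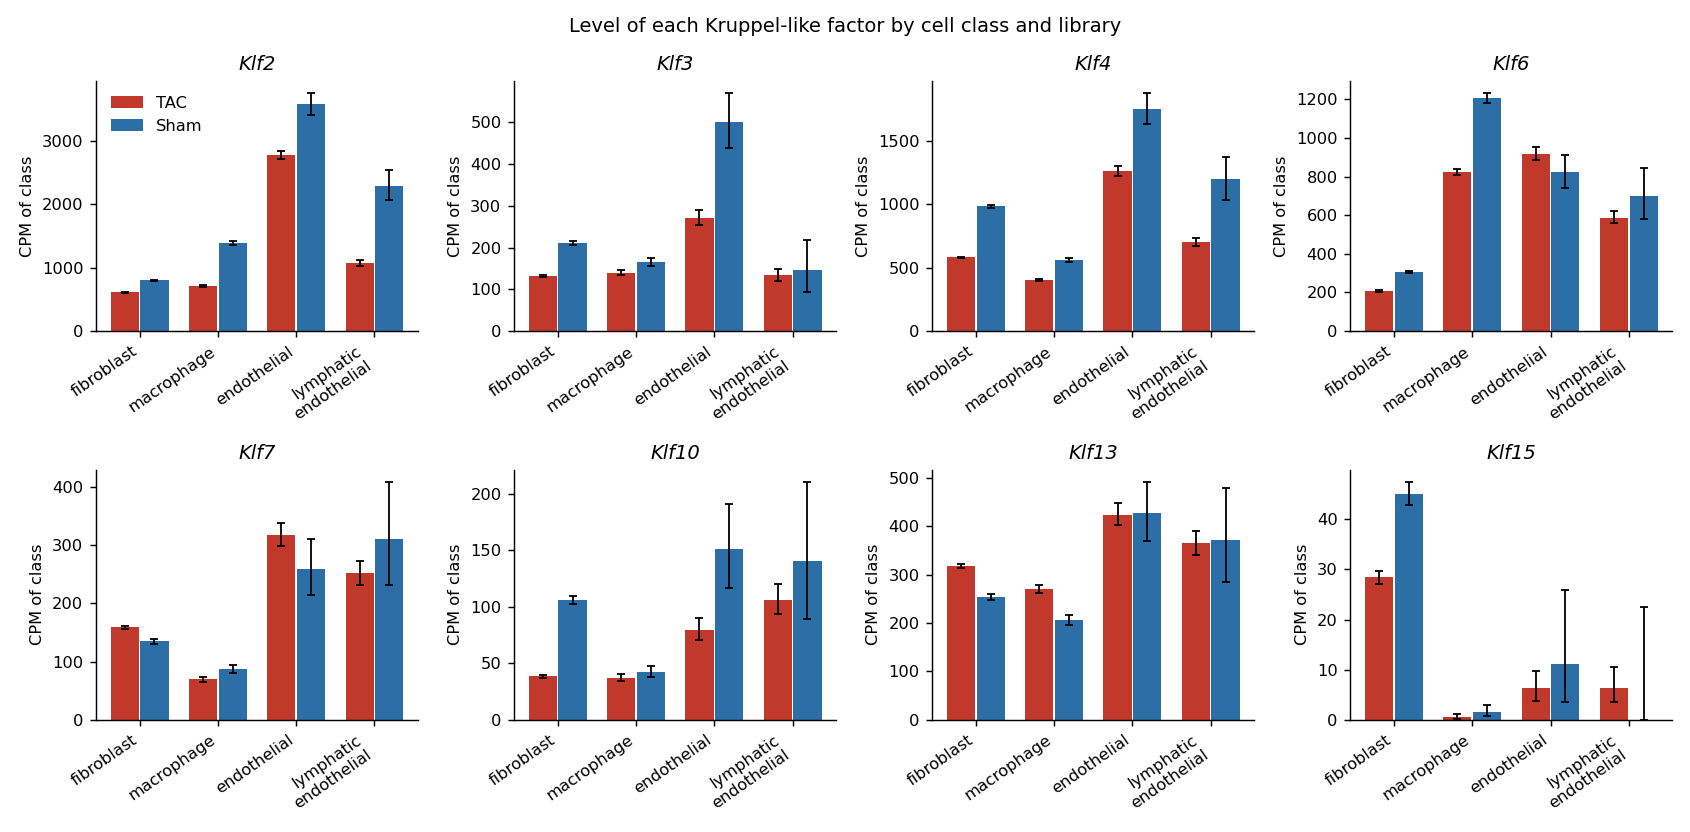
Level of each member in CPM (y axis, linear from 0, a scale of its own per panel) in 4 cell classes, TAC left of Sham. Bars are the class sums and whiskers exact Poisson 95% intervals; endothelial-like bars are the tallest of the first 3 classes for 6 members, from 2776 CPM in TAC and 3574 CPM in Sham for Klf2 downwards.

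Between TAC and Sham, most members were lower in TAC. In fibroblast-like cells 6 of 8 had a lower level in TAC, and the interval of each of the 8 ratios lay on 1 side of no difference. The median log2 ratio TAC/Sham of the 8 members was -0.60, beside -0.06 over the 8816 genes with at least 10 CPM in either library. In macrophage-like cells the median of the 7 members past that floor was -0.31 beside -0.04, in endothelial-like cells that of the 8 was -0.42 beside -0.09, and in lymphatic endothelial-like cells that of the 7 was -0.30 beside -0.08. Ratios are of CPM + 1.

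A difference of at least 2-fold, with at least 10 CPM in either library, was reached by Klf10 in fibroblast-like cells and by Klf2 in lymphatic endothelial-like cells, both lower in TAC, and by no member in macrophage- or endothelial-like cells. That is 1 of 8 members in fibroblast-like cells, where 2.53% of genes were called lower and 3.05% higher. It is 1 of the 7 past the floor in lymphatic endothelial-like cells, where 10.3% were called lower and 11.5% higher, so that a single call there is near the background. The backgrounds with no member called were 1.55% lower and 3.19% higher in macrophage-like cells and 8.30% lower and 7.36% higher in endothelial-like cells.

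**Figure D2:**
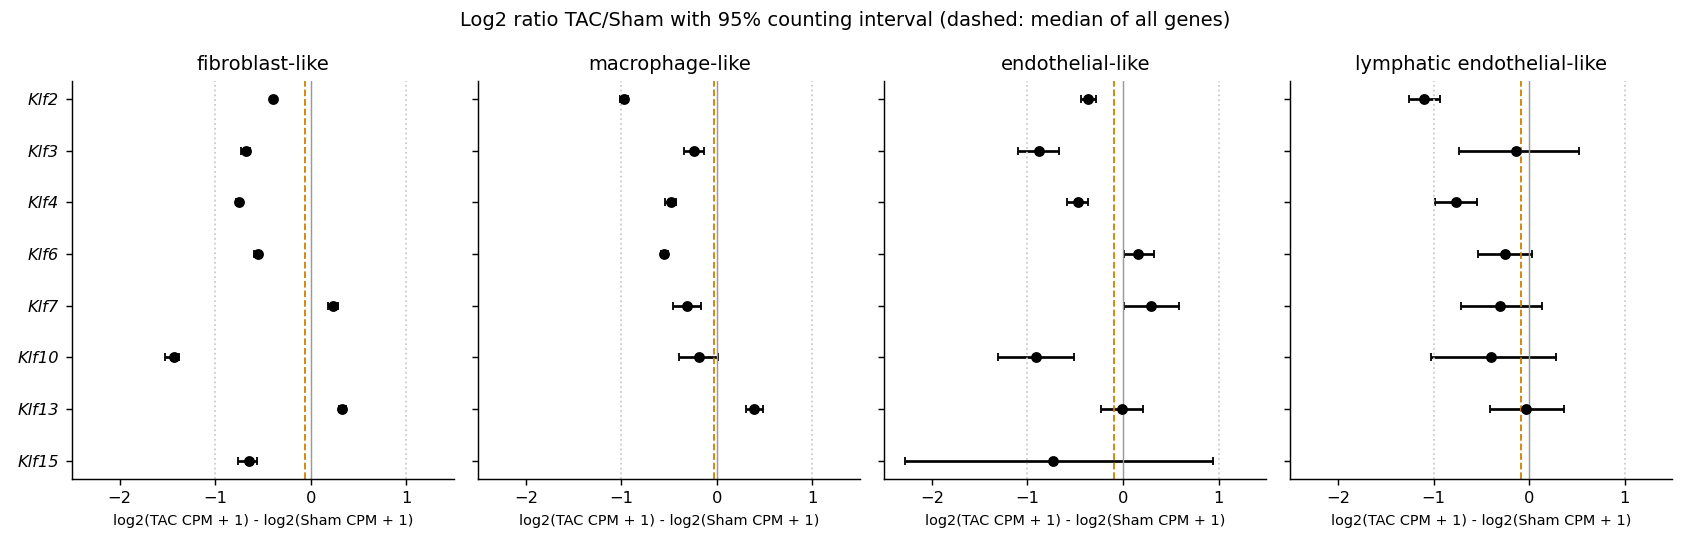
Log2 ratio TAC/Sham of CPM + 1 (x axis) for each member with at least 10 CPM (rows) in the 4 cell classes, with 95% counting intervals. Dotted lines mark 2-fold and the dashed line the median of all genes; Klf10 in fibroblast-like cells, at -1.43, and Klf2 in lymphatic endothelial-like cells, at -1.10, lie past 2-fold.

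Klf10 was the member with the largest difference in fibroblasts. Fibroblast-like cells held 2577 Klf10 UMIs in TAC and 3347 in Sham, which is 38.5 CPM (37.1 to 40.1) against 106 CPM (102 to 109), a ratio of 0.365 (0.347 to 0.384). It ranked at the 1.07th percentile of genes by log2 ratio. At an equal depth of 3800 UMIs per cell, 12.97% of TAC cells (12.1 to 13.9) and 29.9% of Sham cells (28.6 to 31.2) held a Klf10 UMI. Without thinning the shares were 32.5% and 36.1%, with medians of 12119 and 4995 UMIs per cell. A smaller share of TAC cells than of Sham cells held a Klf10 UMI at equal depth, beside the lower sum.

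The fibroblast-like cells of the libraries fell mostly into different clusters, with 41.6%, 24.1% and 18.3% of TAC cells in clusters 0, 3 and 6, and 29.8%, 28.8%, 23.3% and 11.6% of Sham cells in clusters 5, 4, 2 and 13. Klf10 stood between 29.6 and 51.0 CPM in the 6 TAC clusters of at least 50 cells and between 72.1 and 164 CPM in the 7 Sham clusters, with no overlap. In the 4 clusters that held 50 cells of each library it was lower in TAC in 4 of 4, with log2 ratios of -1.89 to -1.24. Klf3 was also lower in TAC in those 4 clusters, at -1.02 to -0.02, and Klf7 was higher in 4 of 4, at 0.01 to 0.47. The -0.02 of Klf3 was that of cluster 0, with 66 Sham cells. The 0.01 of Klf7 was that of cluster 4, with 52 TAC cells. No interval was computed for ratios within clusters, so values this small give no direction.

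Of the other members, Klf2, Klf4, Klf6, Klf13 and Klf15 had no single direction over the 4 shared clusters. In all fibroblast-like cells Klf4 had a log2 ratio of -0.76 and Klf2 of -0.39. Within the 4 shared clusters Klf4 was higher in TAC in 3, and its mean log2 ratio over the 4 was 0.04. Klf2 was higher in 2 of the 4, with a mean of -0.11. Cluster 2, led by Efhd1, Sema3c and Dpp4 and holding 23 TAC and 1431 Sham cells, had the highest Klf4 of any Sham cluster at 1776 CPM. Cluster 1, led by Prg4, Has1 and Cd248, had the highest of the TAC clusters at 1424 CPM, against 1071 CPM in its Sham cells. The mean log2 ratio of Klf10 over the 4 shared clusters was -1.51, at least as large as in all fibroblast-like cells, and this weighting of clusters was added after the values were seen.

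**Figure D3:**
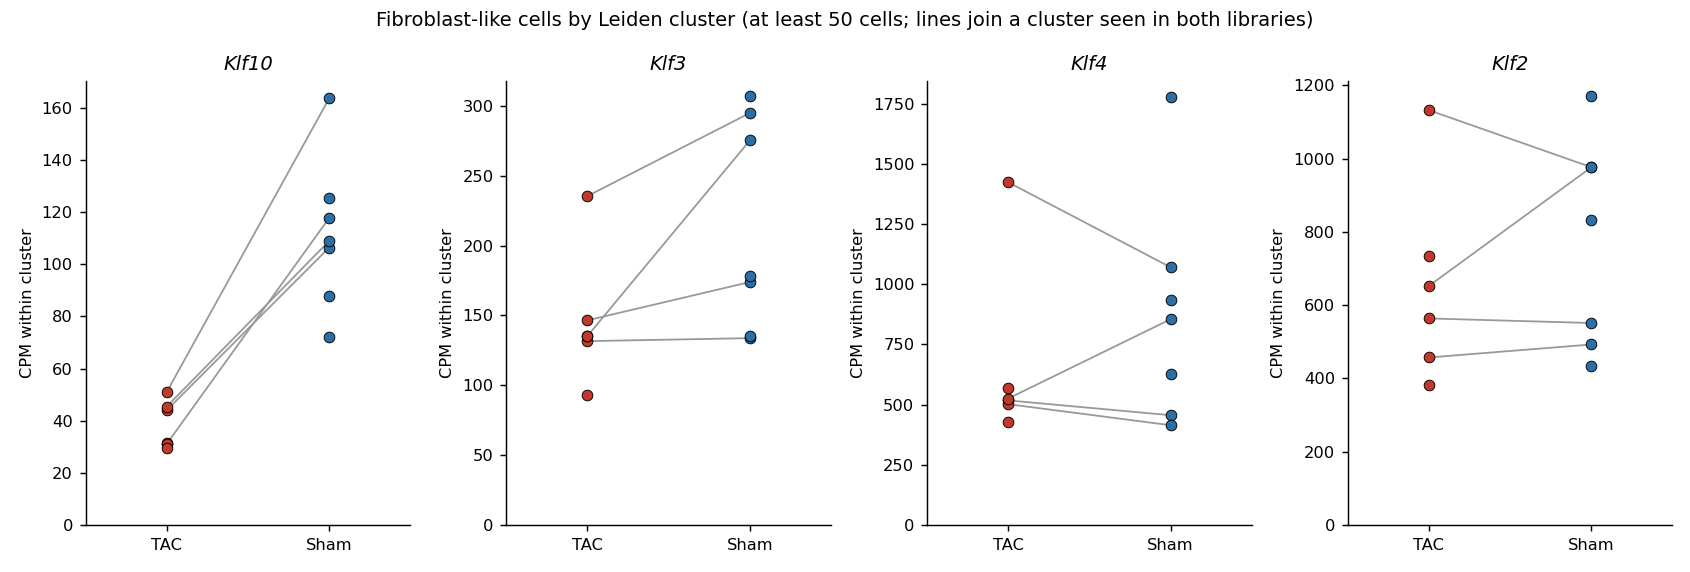
Level in CPM (y axis, linear from 0) of Klf10, Klf3, Klf4 and Klf2 in fibroblast-like cells of each Leiden cluster with at least 50 cells, TAC left of Sham. Each point is a cluster and lines join the 4 clusters seen in both libraries; Klf10 points lie at 29.6 to 51.0 CPM in TAC and 72.1 to 164 CPM in Sham.

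Among the other members in fibroblast-like cells, Klf3 was at 132 CPM in TAC and 211 CPM in Sham (log2 ratio -0.68), Klf15 at 28.4 and 45.1 CPM (-0.65) and Klf6 at 208 and 306 CPM (-0.56). As means over the 4 shared clusters these 3 differences were smaller, at -0.40 for Klf3, -0.14 for Klf15 and -0.15 for Klf6, and Klf15 was higher in TAC in 2 of the 4 and Klf6 in 1. Klf7, at 159 and 135 CPM, and Klf13, at 319 and 254 CPM, were the members with higher levels in TAC, with log2 ratios of 0.23 and 0.33, and means over the shared clusters of 0.25 and 0.16. Klf13 was higher in TAC in 3 of the 4. At 3800 UMIs per cell a Klf13 UMI was found in 66.5% of TAC and 58.5% of Sham cells, and a Klf7 UMI in 43.5% and 37.9%. A Klf4 UMI was found in 64.2% and 76.2%, and Klf2 in 63.4% and 65.6%, while the mean number of Klf2 UMIs in cells with one was 3.67 in TAC and 4.63 in Sham. For a share that should be background, Klf15 was found in 0.526% of macrophage-like cells in TAC and 0.529% in Sham at 3200 UMIs, against 10.1% and 14.8% of fibroblast-like cells.

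Fibroblast states were compared within each library. TAC cells with a UMI of Postn, the periostin gene of activated fibroblasts, held 629 CPM of Klf2, 591 CPM of Klf4 and 37.6 CPM of Klf10. TAC cells without it held 565 CPM of Klf2, 564 CPM of Klf4 and 40.8 CPM of Klf10. Sham cells with a Postn UMI, 194 in all, held 110.3 CPM of Klf10 against 106 CPM in those without. Pi16, a marker of adventitial-type fibroblasts, was seen at 3800 UMIs in 4350 of 5228 TAC and 3679 of 4988 Sham cells. Cells with a Pi16 UMI were thus most of the class, not an adventitial subset. They had more Klf2 and Klf4 than cells without it in both libraries. Klf4 was at 619 and 385 CPM in TAC cells with and without Pi16, and at 1141 and 651 CPM in such Sham cells.

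In macrophage-like cells the largest difference was that of Klf2, at 707 CPM (693 to 721) in TAC and 1387 CPM (1360 to 1414) in Sham. The ratio was 0.510 (0.496 to 0.524), just short of 2-fold, and it ranked at the 1.68th percentile of genes. At 3200 UMIs per cell 58.1% of TAC cells and 81.4% of Sham cells held a Klf2 UMI, and the mean in cells with one was 3.97 and 5.56 UMIs. Klf6 (log2 ratio -0.55) and Klf4 (-0.48) were lower in TAC as well, Klf7 (-0.31) and Klf3 (-0.24) less so, and Klf13 was higher, at 269.8 CPM in TAC and 206 CPM in Sham (0.39). The interval of the Klf10 ratio, 0.758 to 1.01, included no difference.

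Cells of other leukocytes could enter this gate. The 8 neutrophil markers summed to 2425 CPM in TAC and 277 CPM in Sham macrophage-like cells with none of the 8 at 0 in either, and 102 TAC cells lay in cluster 8, which is led by the neutrophil genes S100a8 and S100a9. T or NK cell markers summed to 297 and 277 CPM, also with none at 0, and cluster 9, led by Cd3g and Ccl5, held 194 TAC and 216 Sham cells of the gate. In cluster 10, which is led by Csf1r and C1q genes and holds 649 TAC and 919 Sham cells of the gate, Klf2 was at 704 and 1377 CPM, a log2 ratio of -0.97. That is the ratio of the whole class to 2 decimals. Klf3 and Klf7 differed more within cluster 10, with log2 ratios of -0.43 and -0.53.

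Klf2 also differed between macrophage subsets within each library. Cells with a UMI of Timd4, a marker of long-resident macrophages, held 951 CPM of Klf2 (889.6 to 1016) in TAC and 1745 CPM (1689.5 to 1801) in Sham, against 690.2 and 1269 CPM in cells without it. Cells with Ccr2, the receptor of monocyte-derived macrophages, held 574 CPM in TAC and 1205 CPM in Sham, against 814 and 1507 CPM in cells without it. In each of these 4 subsets Klf2 was lower in TAC than in Sham. The share of cells with a Timd4 UMI was itself lower in TAC, 61 of 951 cells, than in Sham, 283 of 945.

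In endothelial-like cells, where Klf2 and Klf4 are known to respond to flow, both were lower in TAC by less than 2-fold. Klf2 had a ratio of 0.777 (0.736 to 0.820) and Klf4 of 0.719 (0.666 to 0.777). Klf3, at 271 CPM in TAC and 501 CPM in Sham, had a ratio of 0.542 (0.467 to 0.630), and Klf10, at 79.7 and 151 CPM, of 0.529 (0.403 to 0.702). Klf6 and Klf7 were higher in TAC, with ratios of 1.12 (1.00 to 1.25) and 1.22 (1.01 to 1.496), and Klf13 was at 425 CPM in TAC and 428 CPM in Sham. A Klf3 UMI was found in 32.2% of TAC and 51.5% of Sham cells at 1400 UMIs, and a Klf2 UMI in 84.9% and 90.4%. With cells thinned to equal depth before summing, Klf3 passed 2-fold at -1.01, and with classes taken from clusters Klf10 did at -1.20.

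The endothelial gate was unevenly filled. Of the Sham cells 37.4% lay in cluster 15, which is led by Tmem108, Npr3 and Vwf, and of the TAC cells 5.91%. The 8 endocardial markers summed to 973 CPM in TAC and 1811 CPM in Sham endothelial-like cells, with none at 0. Within cluster 14, led by the capillary genes Rbp7 and Gpihbp1 and holding 578 TAC and 101 Sham cells, the log2 ratios were -0.45 for Klf2, -0.73 for Klf4, -0.83 for Klf3 and -0.73 for Klf10. Those of Klf6 and Klf7 were -0.09 and 0.05 there, beside 0.16 and 0.29 in the whole class. The part of endocardial-type cells in the other endothelial values below was not tested.

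Of the endothelial subsets by marker score, arterial-gated cells held Klf2 at 4021 CPM (3602 to 4477) in 18 TAC cells and 4889 CPM (4102 to 5783) in 15 Sham cells. Capillary-gated cells held 2624 CPM (2557 to 2693) in 483 TAC cells and 4026 CPM (3645 to 4436) in 48 Sham cells. The cells of neither gate, 125 in TAC and 100 in Sham, held 3022 CPM (2911 to 3136) and 3318 CPM (3122 to 3523), with overlapping intervals. The log2 ratio of Klf2 was -0.28 in arterial-gated cells, -0.62 in capillary-gated cells and -0.13 in those of neither gate. That of Klf3 was -0.63, -0.60 and -1.16 in the same order. In Sham the intervals of arterial and capillary cells overlap. Of single arterial genes, Hey1 went with higher Klf2 in TAC, and Gja4 did not. The 29 TAC cells with a UMI of the arterial connexin gene Gja4 held 2228 CPM (2011 to 2461) of Klf2, under the 2804 CPM (2745 to 2865) of those without, and in Sham the values were 3336 and 3629 CPM with overlapping intervals. The 38 TAC cells with a UMI of the arterial factor gene Hey1 held 3137 CPM (2869 to 3422), against 2753 CPM (2695 to 2813) without. In Sham the 14 cells with Hey1 held 3025 CPM and those without 3659 CPM, with overlapping intervals. Klf4 in capillary-gated cells was at 1157 CPM in TAC and 1638 CPM in Sham, and in arterial-gated cells at 1746 and 1618 CPM.

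Klf2 and Klf4 were often seen in the same endothelial-like cell. At 1400 UMIs per cell a Klf4 UMI was found in 69.9% of the TAC cells that had a Klf2 UMI and in 26.9% of those that had none. In Sham the shares were 83.7% and 30.8%, the latter from few cells, since 123 of 136 held a Klf2 UMI. Both UMIs were seen in 59.3% of TAC and 75.7% of Sham cells, where independent detection at the same shares would give 53.8% and 71.2%. A Klf4 UMI was also more frequent in fibroblast-like cells with a Klf2 UMI than without, at 72.7% and 49.6% in TAC and 83.7% and 61.9% in Sham. In macrophage-like cells the shares were 63.5% and 42.2% in TAC and 61.5% and 36.9% in Sham.

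In lymphatic endothelial-like cells Klf2 was at 1071 CPM (1029.8 to 1114) in TAC and 2290 CPM (2064 to 2534) in Sham, a ratio of 0.468 (0.420 to 0.523). It was short of 2-fold, at -0.96, with ratios centred on the median gene, and at -0.83 with classes taken from clusters. Klf4 was at 702 and 1197 CPM, a ratio of 0.586 (0.505 to 0.683). The intervals of the other 5 members past 10 CPM included no difference; the Sham class held 61 cells, with 23 Klf10 and 24 Klf3 UMIs. At 1700 UMIs per cell 59.6% of TAC and 77.6% of Sham cells held a Klf2 UMI, with intervals of 53.7 to 65.3 and 63.4 to 88.2 that overlap.

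**Figure D4:**
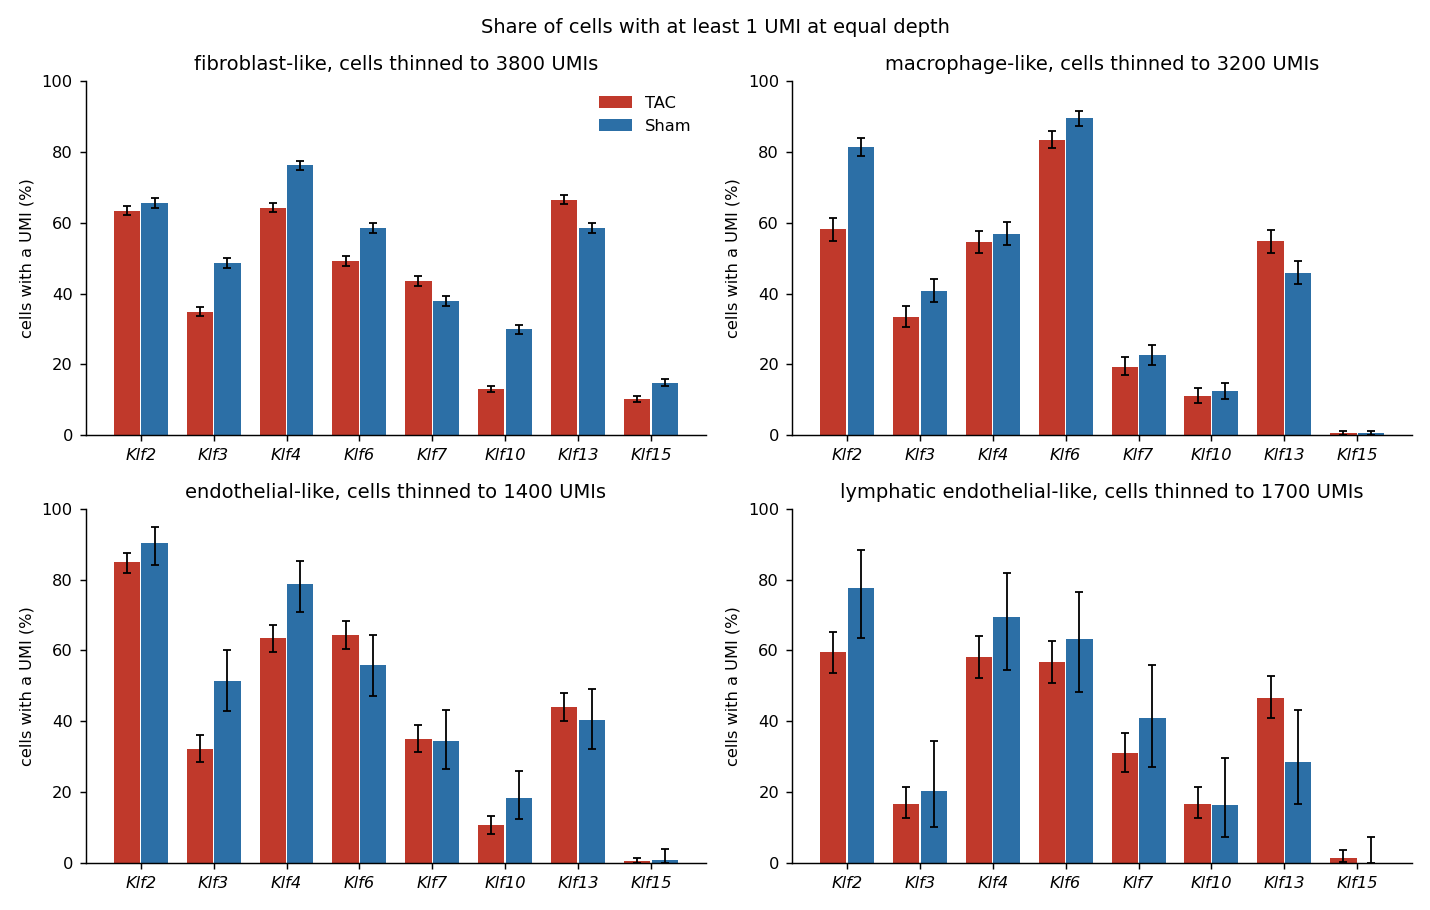
Share of cells (y axis, percent, from 0 to 100) with at least 1 UMI of each member after thinning to an equal depth, TAC left of Sham, in 4 cell classes. Whiskers are exact Clopper-Pearson 95% intervals; Klf10 in fibroblast-like cells is at 12.97% in TAC and 29.9% in Sham, and Klf2 in macrophage-like cells at 58.1% and 81.4%.

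Several members are known to be induced within minutes by cell stress, digestion included, so 16 early genes such as Fos, Jun and Egr1 were set beside them. Their summed level was lower in TAC in each of the 4 classes, although at equal depth the median lymphatic endothelial-like cell held 21 early-gene UMIs in TAC and 20 in Sham. It was 14657 CPM in TAC and 26767 CPM in Sham fibroblast-like cells, 20539 and 26322 CPM in macrophage-like cells, 10644 and 14171 CPM in endothelial-like cells, and 15269 and 16587 CPM in lymphatic endothelial-like cells. In fibroblast-like cells 9 of the 16 were called lower, beside 2.53% of all genes, and 0 higher, with a median log2 ratio of -1.02. In macrophage-like cells 3 of 16 were called lower, beside 1.55% of all genes, with a median of -0.24. In endothelial-like cells it was 3 of 16, beside 8.30%, with a median of -0.33. The largest difference of an early gene was that of Socs3 in fibroblast-like cells, at 149 CPM in TAC and 829 CPM in Sham.

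Cells of both libraries were then split together into 3 groups, low, middle and high, by their early-gene UMIs at equal depth. Klf10 in fibroblast-like cells was lower in TAC in each group, at 42.8 CPM in TAC and 142 CPM in Sham in the low group, 36.5 and 118 CPM in the middle and 26.9 and 87.4 CPM in the high group. Its log2 ratios of -1.71, -1.66 and -1.67 are at least as large as in all cells, and within each library Klf10 was lower where early genes were higher. Klf4 in fibroblast-like cells had ratios of -0.65, -0.66 and -0.51 in the low, middle and high groups, each smaller than the -0.79 of the same thinned cells together, and its level was higher where early genes were higher, at 461, 632 and 750.3 CPM in TAC.

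In macrophage-like cells the Klf2 ratio differed between groups, at -0.55, -0.97 and -1.17 from low to high. Klf2 stood at 672 CPM in TAC and 981 CPM in Sham in the low group and at 706 and 1594 CPM in the high group. Klf6 in these cells was higher where early genes were higher in both libraries, at 633, 952 and 1087 CPM in TAC and 745, 1217 and 1558 CPM in Sham. The Klf13 ratio in macrophage-like cells was -0.01, 0.39 and 0.83 from low to high, and that of Klf4 was -0.11, -0.24 and -0.67. The higher Klf13 of the whole class in TAC was thus not seen in the low group, at 219 CPM in TAC and 220 CPM in Sham. In endothelial-like cells the Sham groups held 32, 39 and 65 cells from low to high. The log2 ratios there were -0.10, -0.50 and -0.40 for Klf2 and -0.98, -0.41 and -0.48 for Klf4. Those of Klf3 were -0.91, -0.73 and -1.38, and those of Klf10 were -0.05, -2.08 and -0.49. The part of digestion in the levels of these classes was not tested beyond this split.

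**Figure D5:**
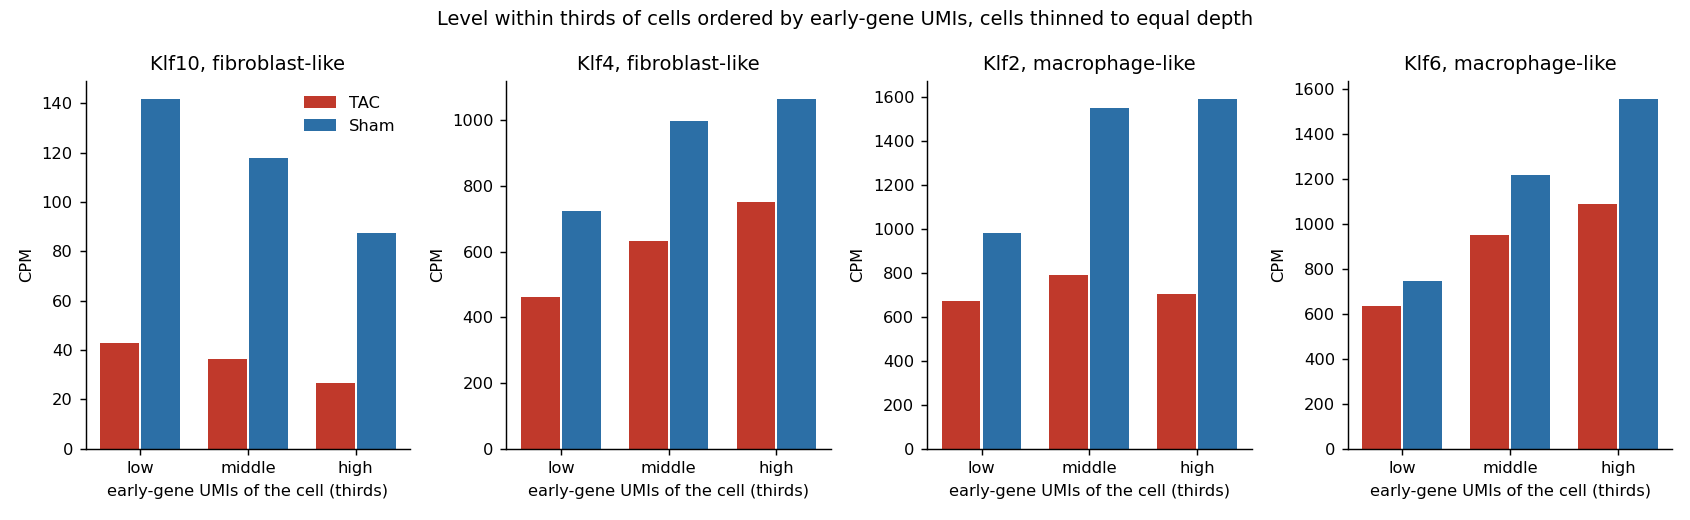
Level in CPM (y axis, linear from 0) of Klf10 and Klf4 in fibroblast-like cells and of Klf2 and Klf6 in macrophage-like cells, in 3 groups of cells by early-gene UMIs (x axis, low to high), TAC left of Sham. Bars are sums of thinned cells; Klf10 in TAC stays at or below 42.8 CPM in each group, beneath the 87.4 CPM of the high group of Sham cells.

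The rest of the family was mostly scarce. Of 14 other KLF and SP genes, 7 passed 10 CPM in fibroblast-like and 7 in macrophage-like cells, and 8 in endothelial-like cells. In these classes 1 was called higher, Klf9 in macrophage-like cells, and 1 lower, Klf12 in endothelial-like cells. Of all genes 3.19% were called higher in macrophage-like cells and 8.30% lower in endothelial-like cells. Klf9, a known glucocorticoid target, was at 103 CPM in TAC and 34.2 CPM in Sham macrophage-like cells, a log2 ratio of 1.56, and at 370.1 and 329.6 CPM in fibroblast-like cells. Klf12, a repressor, was at 18.1 and 42.1 CPM in endothelial-like cells. Sp3, a broadly expressed relative that binds the same GC boxes, was lower in TAC in these 3 classes, with log2 ratios of -0.67, -0.45 and -0.68. Klf14 and Klf17 gave no UMI in any of the 4 classes.

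Upstream of Klf2 and Klf4, 12 genes of flow signalling were measured in endothelial-like cells and none was called, with a median log2 ratio of -0.20. The largest was Heg1, the receptor that restrains MEKK3 with the CCM proteins, at 275 CPM in TAC and 549.8 CPM in Sham (-0.99). Mapk7, the gene of ERK5, gave 62 and 5 UMIs. The MEF2 gene Mef2c was at 353 and 248 CPM (0.51) and Mef2a at 246 and 288 CPM (-0.23).

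Of 9 endothelial genes known to be raised by KLF2 or KLF4, 2 were called lower and 0 higher in endothelial-like cells. Of all genes 8.30% were called lower and 7.36% higher there. Nppc, which encodes a vasodilating natriuretic peptide, gave 25 UMIs in TAC and 38 in Sham, which is 7.82 and 84.2 CPM, and Plat, the tissue plasminogen activator, was at 162 and 479 CPM. The nitric oxide synthase gene Nos3 was at 123 and 139.7 CPM (-0.18), and the water channel Aqp1 was at 1074 and 692 CPM (0.63). Among genes known to be lowered by KLF2 or KLF4, the leukocyte adhesion gene Vcam1 was at 196 CPM in TAC and 623 CPM in Sham and the vasoconstrictor gene Edn1 at 36.9 and 79.8 CPM, while the adhesion gene Icam1 was at 123 and 64.3 CPM (0.92). These genes do not stand for the whole of that list, in which calls went both ways. The median of the 9 genes raised by KLF2 or KLF4, -0.18, stands beside -0.09 for all genes.

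Around Klf10, 14 TGF-beta genes were measured in fibroblast-like cells, of which 2 were called higher and 0 lower. Of all genes 3.05% were called higher and 2.53% lower there. The ligand Tgfb1 was at 156 CPM in TAC and 36.3 CPM in Sham, a log2 ratio of 2.07, and Tgfb3 at 120.2 and 45.1 CPM, a ratio of 1.39. The feedback inhibitor Smad7 was at 121 CPM in TAC and 121 CPM in Sham (-0.01), and Skil, another feedback gene, at 169.6 and 115 CPM (0.56). The median of the list was 0.14, with Klf10 itself at -1.43.

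As Klf9 and Klf15 are known glucocorticoid targets, 12 glucocorticoid-responsive genes were measured. In fibroblast-like cells 4 were called higher and 1 lower, in macrophage-like cells 4 higher and 0 lower, and in endothelial-like cells, where 11 passed the floor, 5 higher and 1 lower. Of all genes 3.05%, 3.19% and 7.36% were called higher in these classes, and 2.53%, 1.55% and 8.30% lower. The stress gene Ddit4 was at 113 CPM in TAC and 21.8 CPM in Sham fibroblast-like cells, and the chaperone gene Fkbp5 at 102 and 16.9 CPM in macrophage-like cells. The receptor gene Nr3c1 was at 159 and 247 CPM in fibroblast-like cells (-0.63). Of the amino acid catabolism genes linked to KLF15, 5 of 8 passed 10 CPM in fibroblast-like cells and none was called; Bcat2, the branched-chain aminotransferase, was at 21.9 and 11.5 CPM (0.87). The 7 co-repressor genes measured held no call in fibroblast-, macrophage- or endothelial-like cells, and Ctbp1, a partner of KLF3, was at 190.4 and 158 CPM in fibroblast-like cells.

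Inflammatory genes that KLF2 and KLF6 are known to bear on were set beside them in macrophage-like cells. Of 10 measured, none was called. The chemokine genes Cxcl2, at 1262 CPM in TAC and 2456 CPM in Sham, Ccl3, at 551 and 1031 CPM, and Ccl4, at 714 and 1323 CPM, had the largest log2 ratios, -0.96, -0.90 and -0.89. Il1b, under 10% of its level in another class and so not told from free RNA, was at 460.0 and 362 CPM (0.35), and Tnf at 111 and 134 CPM (-0.27).

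Classes with fewer cells are given as levels. B cell-like cells held 1963 CPM of Klf2 in 46 TAC cells and 2254 CPM in 56 Sham cells. T or NK cell-like cells held 547 CPM in TAC and 1052 CPM in Sham, from 121 and 146 UMIs. Endocardial-like cells held 387 CPM in 40 TAC cells and 2008 CPM in 37 Sham cells, with Klf15 at 92.8 CPM from 42 UMIs in TAC and 2 UMIs in Sham. Fibroblast markers summed to 7371 CPM in TAC and 9022 CPM in Sham in these cells, with 0 and 2 of the 8 at 0, near the 9147 and 11363 CPM of their own endocardial markers. A stricter gate left 10 TAC and 21 Sham cells, and the part of fibroblast RNA in these levels was not tested.

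Likeness of pattern was measured as Pearson's r of log2(CPM + 1) over 8 sums, those of 4 classes in 2 libraries, among 5644 genes, as a description of points that share libraries and depth. The genes most like Klf2 were Kbtbd2 (r = 0.981), Nelfb (0.974) and Zc3h7a (0.972). Those most like Klf4 were Ppp2r2a (0.983), Zkscan3 (0.976) and Sun1 (0.972), those most like Klf6 were Tle4 (0.982), H3f3a (0.981) and Ostf1 (0.979), and those most like Klf10 were Fam117a (0.966), Myef2 (0.963) and Nov (0.961). Among the members themselves the closest pairs were Klf7 and Klf13 (0.881), Klf4 and Klf10 (0.859) and Klf2 and Klf4 (0.822), and the farthest was Klf6 and Klf15 (-0.72).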

How the data were processed

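Single-cell libraries of TAC and Sham hearts were read as the authors deposited them, as raw UMI counts by gene and cell barcode; per the file headers, Cell Ranger 3.1.0 wrote them. The build was mm10 and Seurat was used, per the submitters' processing notes. Of 31053 gene IDs 31011 matched GENCODE vM21. Cells needed 500 genes, 1000 UMIs and at most 15% mitochondrial counts (901 TAC and 462 Sham barcodes failed), and Scrublet doublets were removed (146 and 70; Scanpy 1.11.5). A cell joined the class with the highest mean score of 8 gate markers if this reached 0.3 and led by 0.1, or 0.05 within a lineage. Counts were summed by class and library, and log2 ratios of CPM + 1 carry exact conditional binomial intervals; the steps were tested on simulated data. No test was made, since a group has 1 library. Leiden clusters (resolution 1.0) were used for splits. Thinning went to the 20th percentile of the shallower library, leaving out 222 TAC and 1162 Sham fibroblast-like cells, 39 and 207 macrophage-like, 11 and 27 endothelial-like, and 0 and 12 lymphatic cells. All 8 members are named. Up to 3 genes a list were named by size of ratio among those with at least 10% of the CPM of the highest other class; others were added after their values were seen. The members, markers and 10 gene lists were chosen with earlier results of these data known. The authors' cell names were not used here. One gene of the list lowered by KLF2 or KLF4, and with it that list's count and median, is not reported here.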

Additional observations from a re-analysis of the deposited data

Results flagged for a closer look

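For 2 members the log2 ratio TAC/Sham had opposite signs in different classes, with each counting interval on 1 side of 0; the difference between classes was not tested. Klf6 was at 0.16 in endothelial-like cells, against -0.56 in fibroblast-like and -0.55 in macrophage-like cells. Klf7 was at 0.23 in fibroblast-like and 0.29 in endothelial-like cells, against -0.31 in macrophage-like cells. The lower limits of the endothelial intervals were 0.0054 for Klf6 and 0.015 for Klf7, and within the capillary-led cluster 14 the Klf6 value was -0.09 and the Klf7 value 0.05. In capillary-gated cells, 483 in TAC and 48 in Sham, both were below 0, at -0.27 for Klf6 and -0.11 for Klf7. In arterial-gated cells Klf6 was at -0.28 and Klf7 at 1.00, the latter with 4 Sham UMIs. In endothelial-like cells of neither gate they were at -0.10 and 0.11. The intervals of the TAC and Sham levels overlapped for both genes in each of these subsets.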

How the results depend on the processing

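Under 11 alternative settings and 3 more added after the data were seen, 357 of 376 recomputed log2 ratios of members kept their direction and 114 of 121 counts stayed within 1.5 times. Klf10 in fibroblast-like cells ranged from -1.51 to -1.25 over 12 alternatives and Klf2 in macrophage-like cells from -1.01 to -0.87. The count of members at least 2-fold lower became 0 in lymphatic endothelial-like cells with ratios centred on the median gene (Klf2 at -0.96) and with classes from Leiden clusters (-0.83). It became 1 in endothelial-like cells with thinned cells (Klf3 at -1.01), with means over cells (Klf15 at -1.22), with the gate on thinned cells (Klf10 at -1.02) and with Leiden clusters (Klf10 at -1.20), and 1 in macrophage-like cells with Leiden clusters (Klf2 at -1.01). Centring subtracted a median of -0.11 in endothelial-like and -0.14 in lymphatic endothelial-like cells. Klf13 in endothelial-like cells ranged from -0.14 to 0.10, so no direction is given. Klf4 in fibroblast-like cells was at 0.04 as the mean of the 4 shared clusters. With doublets kept, 62 of 64 shares stayed within their intervals. No paired analysis was possible because each group is 1 library. Depth limits Klf15 in macrophage-like cells and both endothelial classes, and most members in the 61 Sham lymphatic endothelial-like cells.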
